A study of Homo sapiens with 16 samples.

Results

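In cPt-sensitive A2780 cells, 1315 autosomal regions over 2000 bp carried both H3K27ac and H3K9ac and had no H3K27ac peak in the cPt-resistant derivative A2780cis. They were chosen from the peak lists by merging the H3K27ac peaks of both lines where they shared at least 1 bp, keeping merged regions over 2000 bp with a peak in A2780 and none in A2780cis, and requiring an overlap of at least 1 bp with an H3K9ac peak of A2780. The merge gave 31493 autosomal regions, of which 16641 were over 2000 bp. Of these, 3268 were found only in A2780, which is a background of 19.6% for the loss of H3K27ac. The 1315 regions made up 40.2% of the lost regions (95% Wilson interval 38.6% to 41.9%). The H3K27ac of A2780 and A2780cis and the H3K9ac of A2780 thus selected the regions, and their values in these 3 lists are given as a description. The H3K9ac list of A2780cis and the H3K27ac lists of 4 further samples were not used in the choice. Some of these 4 samples are also A2780 cells, the line in which the regions were chosen to have H3K27ac.

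A2780 is a cell line from an endometrioid ovarian adenocarcinoma, untreated here, and A2780cis is its resistant derivative, kept in cisplatin (cPt). CAOV4 is an untreated high-grade serous line, and CAOV4cis was derived from it by prolonged cPt treatment and was also kept in cPt. H3K27ac was also profiled in A2780 cells after 1 week of doxycycline-induced knockdown of *MBD3* with the shRNA shMBD3.26 or shMBD3.232, in cells sorted for the GFP that the vector carries with the shRNA. Each condition and mark had 1 library, so that no difference between conditions has a replicate check and no p-value was computed. Cells with a control shRNA were not analysed here, and knockdown cells are set beside untransduced A2780. The knockdown thus cannot be told apart from the Tet-on modification of the cells, the transduction, G418 selection, doxycycline and sorting.

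H3K27ac is placed by the acetyltransferases p300 and CBP and marks active enhancers and promoters. H3K9ac is placed mainly by GCN5 and PCAF and is found at active promoters and at strong enhancers, where both marks often occur together. Histone deacetylases remove both marks, and MBD3 is a subunit of NuRD, a complex that joins histone deacetylases to a nucleosome remodeler. Wide domains or dense groups of H3K27ac peaks are typical of super-enhancers, which control genes of cell identity.

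The lists give the start and end of each peak and no strength, so a lost region is one without a listed peak and can still carry signal below the authors' threshold. How many reads stand behind each peak is unknown. The autosomal lists held 15058 to 27932 peaks, which covered 53.6 to 96.7 Mb. The A2780 lists were the longest for each mark, with 27932 H3K27ac and 22438 H3K9ac peaks against 20245 and 15058 in A2780cis, whereas the covered length differed less, with 96.7 and 91.5 Mb for H3K27ac and 54.5 and 53.6 Mb for H3K9ac. Values with lists cut to equal length are given beside some of the results and in the closing section on processing. No list had a peak on chromosomes 20, 21 or 22. On each of chromosomes 1 to 12, all lists ended before the human chromosome does, for example at 197193000 on chromosome 1 and 131665000 on chromosome 8. Regions beyond were not analysed here, and counts, ranks by width and shares per chromosome cover the listed part only. Positions are in GRCh37 (hg19), the build named in the submitters' processing notes.

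The lost regions with H3K9ac were by median wider than those without it, but narrower than regions with H3K9ac that kept H3K27ac. Their median width was 4600 bp (95% interval 4200 to 4800), with a middle range from 3000 to 9000 bp and extremes of 2200 and 97800 bp. The 1953 lost regions without H3K9ac had a median of 3000 bp and reached 18800 bp, and the 8993 regions with H3K27ac in both lines and H3K9ac in A2780, called common regions here, had a median of 6000 bp. A lost region is a single A2780 peak, whereas a common region joins overlapping peaks of both lines and can be wider for that reason alone. A wide A2780 peak also has more room to meet a peak of A2780cis and so to count as common. This also enters the classes of width and the covered shares of common regions below, and its part was not tested. Over 10 kb were 273 of the 1315 regions, or 20.8% (18.7% to 23%), and these held 54.4% of the total width of 10.1 Mb. Of the lost regions without H3K9ac, 32 were over 10 kb, or 1.64% (1.16% to 2.30%). Over 20 kb were 98 regions with H3K9ac and 0 of the 1953 without it, a count that allows a share of up to 0.196%. A wide region has more room to meet an H3K9ac peak, and the share of lost regions with H3K9ac rose with width, from 28.9% up to 4 kb to 46.9% between 4 and 8 kb and 81.2% over 8 kb. Common regions of these widths had H3K9ac at 59.2%, 81.0% and 93.2%. At the limits of the choice, 86 of the regions measured 2200 bp, 95 further regions with the same marks measured 2000 bp and were left out, and 143 of the lost regions without H3K9ac had an H3K9ac peak of A2780 within 1000 bp.

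H3K9ac covered a median of 45.5% of a region (42.9% to 47.4%), with a middle range from 21.7% to 71.4%. In common regions the median was 52.9%. The median covered length was 2000 bp, 74 regions were covered throughout and 99 met H3K9ac over only 200 bp. A single H3K9ac peak was found at 1039 regions, or 79.0%, 2 peaks at 183, 3 at 53 and 4 or more at 40. At 508 regions, or 38.6%, an H3K9ac peak ran on beyond the edge of the H3K27ac region. Up to 4 kb, the median was 47.4% in lost and 62.5% in common regions. Between 4 and 8 kb it was 38.0% and 54.2%, and over 8 kb it was 48.6% and 45.8%. The plot of widths and H3K9ac coverage shows a long tail of wide regions and a broad spread of coverage without a single preferred value. With only peaks over 2000 bp in each list, the choice gave 1059 regions with a median coverage of 69.4%. With the 15058 widest peaks of each list, it gave 1278 regions with a median of 55.1%.

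**Figure D1:**
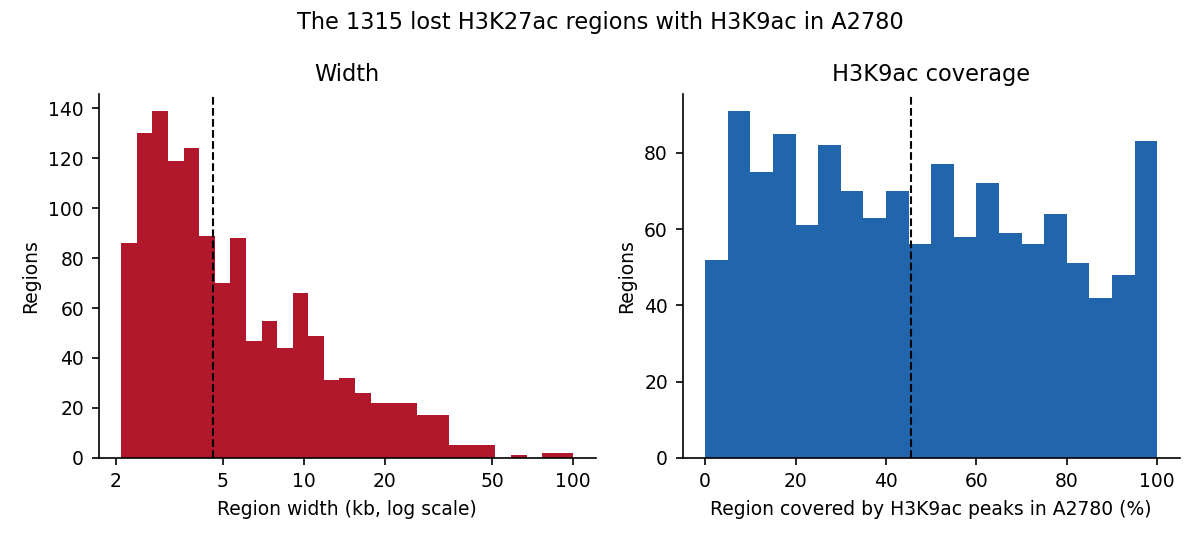
Width in kb on a log scale (left) and percent of the region covered by H3K9ac peaks of A2780 (right) of the 1315 lost regions with H3K9ac, as numbers of regions; dashed lines mark the medians of 4600 bp and 45.5%. Widths reach 97.8 kb, and coverage runs from 1.28% to 100%.

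H3K9ac was nearly always missing together with H3K27ac in A2780cis. The regions were chosen to lack H3K27ac there, and the marks often occur together, so a low share follows in part from the choice. Of the 1315 regions, 95 had an H3K9ac peak in A2780cis, or 7.22% (5.95% to 8.75%), so that 1220 had none. Among all 10308 regions over 2000 bp with both marks in A2780, which include these 1315, 24.8% had no H3K9ac peak in A2780cis. Common regions had an H3K9ac peak in A2780cis at 85.1% (84.4% to 85.8%), and the difference from them was -77.9 percentage points (95% Newcombe interval -79.4 to -76.2). Lost regions without H3K9ac in A2780 had one at 4.10% (3.30% to 5.07%), which is 3.13 points lower (1.52 to 4.85). These intervals cover counting error only, and neighboring regions are not independent. Within classes of width, the share of the lost regions with H3K9ac was 8.53%, 9.04% and 3.31% from the narrowest to the widest class, while that of common regions went the other way, from 73.2% to 85.9% and 93.6%. Where an H3K9ac peak was listed in A2780cis, the part of it inside the region covered a median of 20% of the region (14.3% to 29.4%), against 60% in common regions. Over all 1315 regions together, H3K9ac peaks covered 49.5% of the total width in A2780 and 1.07% in A2780cis. With the 15058 widest peaks of each list, the choice gave 1278 regions, of which 11.7% had H3K9ac in A2780cis.

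The regions with an H3K9ac peak in A2780cis were few, and in the 3 widest of them it covered little. The first of these lay on chromosome 12 from 13262601 to 13292200. It measured 29.6 kb and had H3K9ac over 28.6 kb in A2780 and over 0.400 kb in A2780cis, while H3K27ac covered 89.2% with shMBD3.26 and 95.9% with shMBD3.232. The next lay close together on chromosome 4, from 124786801 to 124804600 and from 124749001 to 124766600, with 15.4 and 12.6 kb of H3K9ac in A2780 and 1.80 and 0.2 kb in A2780cis. H3K27ac covered both throughout with each shRNA. Of the 95 regions with H3K9ac in A2780cis, 40% (30.7% to 50.1%) also had an H3K27ac peak in CAOV4 or CAOV4cis, against 26.5% of the 1220 others, a difference of 13.5 points (3.90 to 23.9). H3K27ac with both shRNAs was found at 48.4% of them and at 62.5% of the others, a difference of -14.0 points (-24.2 to -3.75). The 95 regions were less often over 8 kb than the others, with 12 of the 363 regions of that width. Peaks with the shRNAs and in the serous lines changed with width, and these differences were not split by width.

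Most of the regions had H3K27ac after the knockdown of *MBD3*. The knockdown cells are A2780, and the regions were chosen to have H3K27ac in A2780, so a high share follows in part from the choice. A peak was listed with shMBD3.26 at 992 regions, or 75.4% (73.0% to 77.7%), and with shMBD3.232 at 919, or 69.9% (67.4% to 72.3%). Of all 14956 regions over 2000 bp with H3K27ac in A2780, only 15.5% had no peak with shMBD3.26 and 18.5% none with shMBD3.232. The lost regions with H3K9ac thus had a peak less often than this background with either shRNA. Both shRNAs had a peak at 808 of the lost regions with H3K9ac, or 61.4% (58.8% to 64.0%), and neither at 212, or 16.1% (14.2% to 18.2%), against a background of 10.6% with neither. The remaining 295 had a peak with a single shRNA, 184 of them with shMBD3.26 and 111 with shMBD3.232. Where a peak was listed, it covered a median of 76.8% of the region with shMBD3.26 and 82.7% with shMBD3.232. Under other limits, which chose the regions anew, the share with neither shRNA moved. It was 9.54% of 1017 regions with peaks within 5 kb counted in both the choice and the lookup. For regions over 1000 bp it was 24.3% of 1879, and for those over 5000 bp it was 3.13% of 575.

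The lost regions with H3K9ac lay between both other classes in this readout. With shMBD3.26, their share was 27.5 points above that of lost regions without H3K9ac (24.2 to 30.6), which had a peak at 48%, and differed by -21.1 points (-23.5 to -18.8) from common regions, which had one at 96.5%. With shMBD3.232, the share was 27.3 points (23.9 to 30.5) above 42.6% and differed by -24.8 points (-27.4 to -22.3) from 94.7%. The order held within each class of width. Peaks with both shRNAs were found at 40.0%, 67.5% and 90.9% of the lost regions with H3K9ac from the narrowest to the widest class, at 25.3%, 42.8% and 64.3% of those without it, and at 85.2%, 94.4% and 97.8% of common regions. Over 8 kb, the difference from lost regions without H3K9ac was 26.6 points (16.6 to 37.6) and that from common regions -6.88 points (-10.3 to -4.27). With shMBD3.26 alone, the widest lost regions with H3K9ac, at 98.1%, and common regions, at 98.9%, had a difference whose interval included 0 (-2.85 to 0.265 points).

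**Figure D2:**
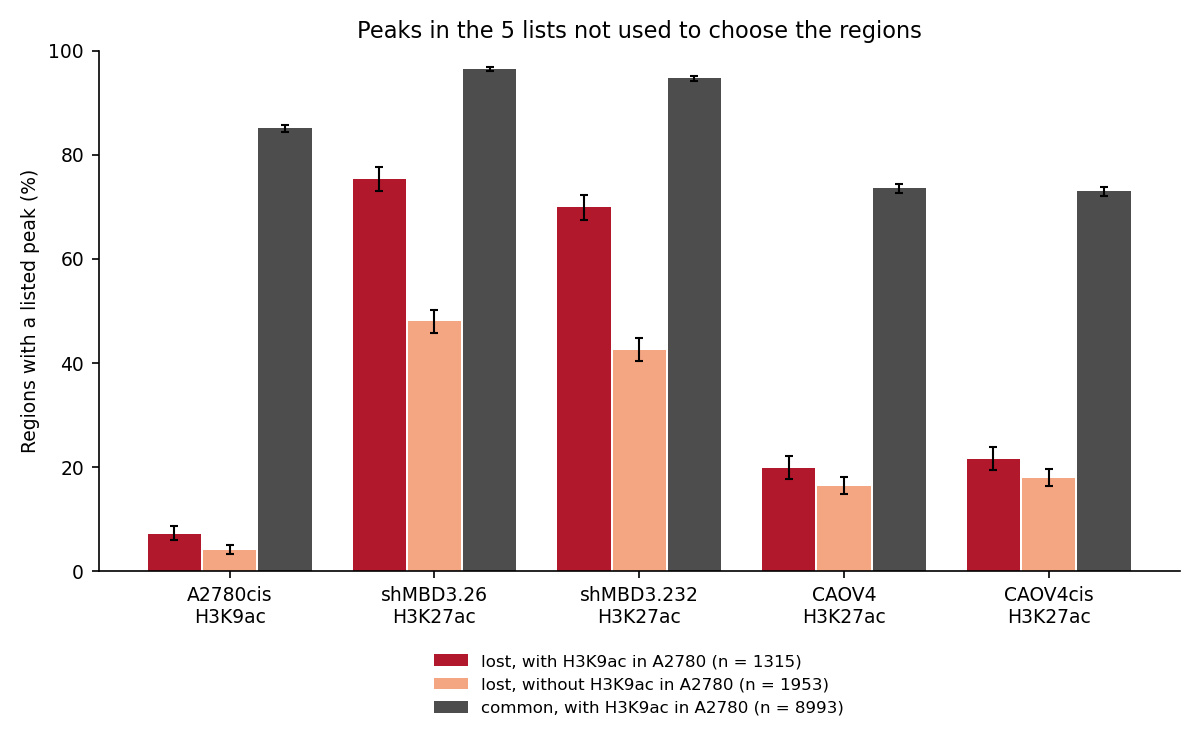
Percent of regions with a listed peak in the 5 lists that did not enter the choice, for lost regions with H3K9ac (red), lost regions without H3K9ac (orange) and common regions with H3K9ac (gray); bars are shares of 1 library each and error bars 95% Wilson intervals. Red bars reach 75.4% and 69.9% with the shRNAs but 7.22% for H3K9ac in A2780cis. The shRNA samples are A2780 cells, in which all classes shown were chosen to have H3K27ac. The lost regions, with and without H3K9ac, were chosen to lack H3K27ac in A2780cis.

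H3K27ac with the shRNAs was also set beside the share of the region that H3K9ac covered in A2780, and no single order held in all classes of width. Peaks with both shRNAs were found at 54.4% (49.3% to 59.4%) of the regions of which H3K9ac covered up to 25%, at 59.5% of those with over 25% to 50%, at 69.4% of those with over 50% to 75% and at 64.6% (58.9% to 70%) above that. Among regions up to 4 kb, the shares were 32.9% (26.2% to 40.4%), 36.4%, 44.4% and 47.4% (39.7% to 55.3%). Between 4 and 8 kb, they were 65.3% (56.5% to 73.2%), 63.7%, 76.2% and 66.7% (53% to 78%), without a trend from the least to the most H3K9ac. Among regions over 8 kb, they were 78.9% (69.4% to 86.0%), 91.8%, 95% and 98.7% (92.8% to 99.8%). H3K9ac in A2780cis was listed at 35 of the 280 regions with the most H3K9ac in A2780 (interval 9.13% to 16.9%) and at 17 of the 375 with the least, or 4.53% (2.85% to 7.14%).

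**Figure D3:**
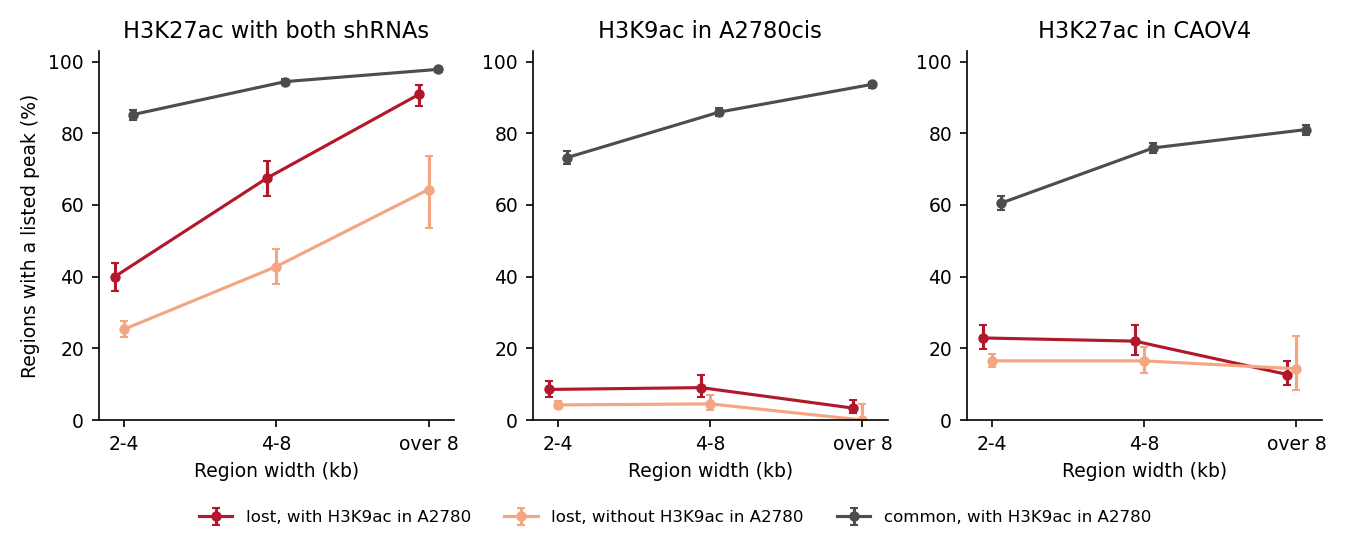
Percent of regions with H3K27ac with both shRNAs (left), H3K9ac in A2780cis (middle) and H3K27ac in CAOV4 (right) by width of the region, for the same 3 classes of regions; error bars are 95% Wilson intervals. With both shRNAs, the lost regions with H3K9ac rise from 40.0% to 90.9%, whereas H3K9ac in A2780cis stays at or below 9.04%.

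The widest regions without H3K27ac with either shRNA had little H3K9ac. The first lay on chromosome 3 from 154685601 to 154699400, the next on chromosome 7 from 81495401 to 81507400, and another on chromosome 6 from 44793801 to 44803600. H3K9ac covered 0.800 kb of 13.8 kb, 1.40 kb of 12 kb and 1.80 kb of 9.80 kb, respectively. None of the 3 had a peak in CAOV4 or CAOV4cis. Among the 363 regions over 8 kb, 5 had a peak with neither shRNA, 26 with shMBD3.26 only and 2 with shMBD3.232 only. At 11 of these 26, shMBD3.26 covered over 50% of the region, and several of these, named after their values were seen, lay side by side. On chromosome 3, regions from 81977401 to 81989000 and from 82006801 to 82018400 had 11.6 and 9.40 kb of H3K27ac with shMBD3.26 and 0 with shMBD3.232. On chromosome 5, regions from 146044801 to 146057800 and from 146072201 to 146090800 had 10.8 and 12.6 kb against 0.

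The serous lines seldom had H3K27ac at these regions. A peak was listed in CAOV4 at 261, or 19.8% (17.8% to 22.1%), and in CAOV4cis at 284, or 21.6% (19.5% to 23.9%). Of all regions over 2000 bp with H3K27ac in A2780, 55.9% had a peak in CAOV4 and 56.3% in CAOV4cis. Common regions with H3K9ac had one at 73.6% in CAOV4, and the difference was -53.7 points (-56.0 to -51.3). The lost regions without H3K9ac were close, with 16.4% in CAOV4 and 18.0% in CAOV4cis, or 3.46 points (0.782 to 6.20) and 3.62 points (0.851 to 6.45) lower. With peaks within 5 kb counted in both the choice and the lookup, these differences were 0.831 and -0.973 points. Both serous lines had a peak at 184 regions, CAOV4 alone at 77, CAOV4cis alone at 100 and neither at 954, or 72.5% (70.1% to 74.9%). In CAOV4, the share fell from 22.9% of the narrowest to 12.7% of the widest regions, while in common regions it was 60.5% and 81.0%. The widest regions with a peak in both serous lines were that on chromosome 6 from 133200801 to 133286600, that on chromosome 7 from 25744201 to 25784000, and that on chromosome 2 from 164556601 to 164595400. The covered part was small there, with 7.46%, 20.6% and 5.67% in CAOV4 and 5.83%, 5.53% and 17.5% in CAOV4cis.

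Over the 5 lists that did not enter the choice, patterns of peaks were counted for these regions only. Shares of the patterns over all regions were not computed, so they are a description and show no trait particular to these regions. The most frequent pattern in these lists was H3K27ac with both shRNAs and no peak elsewhere, at 556 regions or 42.3% (39.6% to 45.0%). No peak in any of these lists was found at 150 regions, or 11.4%, a peak with shMBD3.26 alone at 127 and with shMBD3.232 alone at 64. Peaks with both shRNAs and in both serous lines, without H3K9ac in A2780cis, were found at 107 regions. The average profile around the centers shows each list singly and no joint pattern. At 2.1 kb or less from the center, H3K27ac of A2780cis was near 0, which follows in part from the choice. At the left edge of the profile it was listed at 8.82% of the regions, where A2780 had a peak at 28.6% of them.

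**Figure D4:**
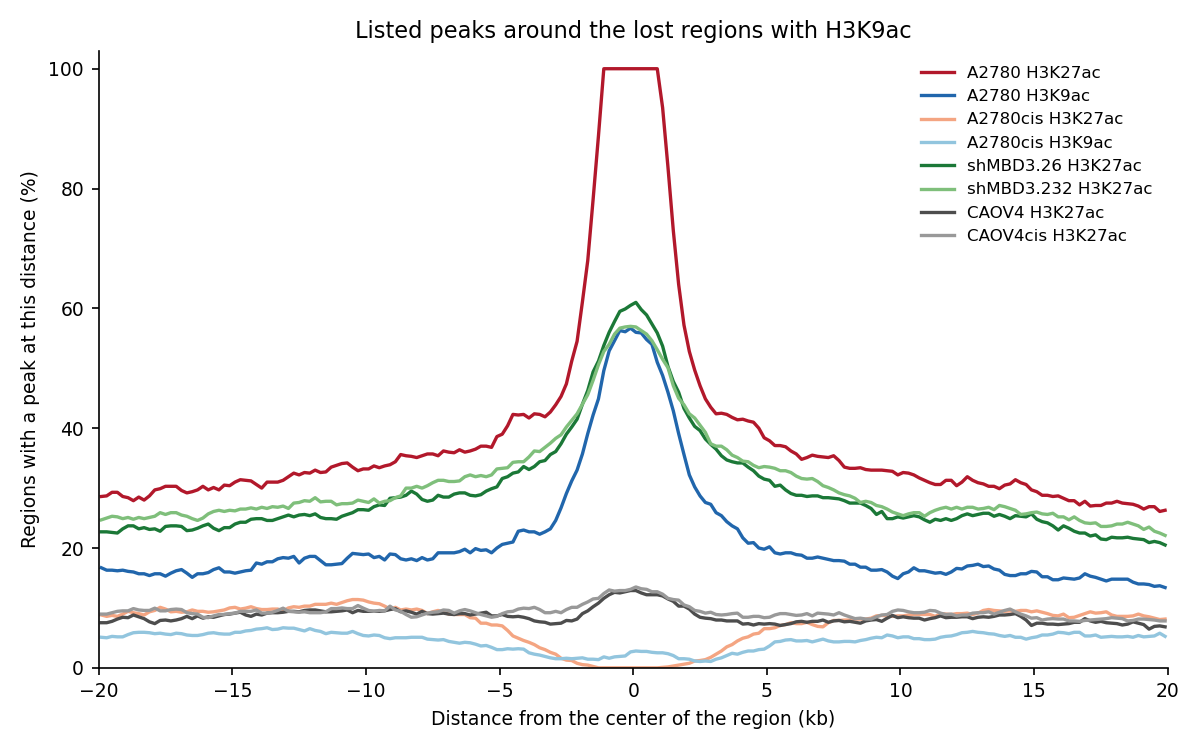
Percent of the 1315 regions with a listed peak at each distance from the center of the region, in kb, for the 8 lists. H3K27ac with both shRNAs follows H3K9ac and H3K27ac of A2780 at the center and is above 20% at both edges, while both A2780cis marks stay low over the whole window. H3K27ac of both lines and H3K9ac of A2780 at the center reflect the choice.

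The 15 widest regions measured 39.8 to 97.8 kb. None had H3K27ac or H3K9ac in A2780cis, and all 15 had H3K27ac with both shRNAs, which covered at least 85.2% of each with shMBD3.26 and at least 85.8% with shMBD3.232. H3K9ac of A2780 covered 35.1% to 94.8% of them, with a median of 73.7%. A peak in CAOV4 was listed at 4 and in CAOV4cis at 2 of them. The widest lay on chromosome 2 from 50299401 to 50397200. It held 13 H3K9ac peaks in A2780, which covered 58.6 kb of 97.8 kb, and was covered throughout with both shRNAs. The nearest H3K27ac peak of A2780cis lay 365 kb and the nearest H3K9ac peak 1630 kb away. The region that ranked 10 by width lay on the same chromosome from 50531801 to 50577600 and was likewise covered by 97.8% and 100% with the shRNAs.

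The second and the seventh lay next to each other on chromosome 13, from 91727801 to 91823000 and from 91825201 to 91876000. H3K9ac covered 87.8% and 80.7% of them in A2780, and no H3K9ac peak of A2780cis was listed within 4452 kb of the latter. The third, on chromosome 6 from 133200801 to 133286600, measured 85.8 kb and was the widest with a peak in both serous lines. The fourth, on chromosome 1 from 192507601 to 192589200, had the second highest H3K9ac coverage of the 15, with 72 kb of 81.6 kb. The highest was found on chromosome 11 from 26334801 to 26385000, with 47.6 kb of 50.2 kb. Chromosome 7 held 5 of the 15, the widest from 10135201 to 10197400, with 46.6 kb of H3K9ac in 62.2 kb and the nearest H3K27ac peak of A2780cis 780 kb away. In contrast, on chromosome 8 from 129969001 to 130017600, H3K9ac peaks of A2780cis began 16.8 kb and H3K27ac peaks 18.4 kb away. On chromosome 18, the region from 30978601 to 31029800 had the lowest coverage with shMBD3.26 among the 15, at 85.2%, and 92.2% with shMBD3.232. On chromosome 5 from 70660801 to 70701800, H3K9ac covered the smallest share of the 15, and H3K27ac with the shRNAs still covered 85.4% and 96.6%.

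The regions lay in runs of loss. Along the chromosome, both neighboring regions were found only in A2780 for 665 of the 1315, or 50.6% (47.9% to 53.3%), against 42.2% (40.0% to 44.4%) of the lost regions without H3K9ac, 14.5% (13.8% to 15.2%) of the common regions and 19.2% (18.6% to 19.8%) of all merged regions over 2000 bp. The distance to the nearest H3K27ac peak of A2780cis had a median of 26000 bp (22200 to 29800), against 14600 bp (12800 to 16200) for lost regions without H3K9ac. No such peak lay within 100 kb of 382 regions, or 29.0% (26.7% to 31.6%), against 24.8% (22.9% to 26.7%). This order turned within classes of width. Up to 4 kb, 12.2% (9.82% to 15.1%) of the regions with H3K9ac and 19.8% (17.9% to 21.9%) of those without it had no A2780cis peak within 100 kb, and over 8 kb the shares were 59.0% (53.8% to 63.9%) and 63.1% (52.4% to 72.6%), with intervals that overlap. Neighbors and distances come from the H3K27ac lists that selected the regions and are a description.

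Stitched at the default distance of ROSE, a tool that finds super-enhancers, the 1315 regions formed 1074 clusters, of which 911 held a single region. The other 163 held 404 regions, or 30.7%, with up to 10 in a cluster. The cluster with the most H3K27ac lay on chromosome 1 from 192410001 to 192612200. In A2780, H3K27ac covered 178 kb and H3K9ac 136 kb of it. In A2780cis, H3K27ac covered 0 and H3K9ac 0.2 kb, whereas H3K27ac covered 146 kb with shMBD3.26 and 145 kb with shMBD3.232. The next, on chromosome 13 from 91727801 to 91903200, had 168 kb of H3K27ac and 134 kb of H3K9ac in A2780, 153 and 145 kb of H3K27ac with the shRNAs, and 0.400 kb in CAOV4. A cluster of 10 regions on chromosome 1 from 96394801 to 96563200 had 146 kb of H3K27ac in A2780, 133 and 145 kb with the shRNAs and no peak in either serous line. The fourth cluster, on chromosome 6 from 133174401 to 133286600, had 110 kb in A2780, and the fifth, on chromosome 12 from 4177001 to 4311800, had 105 kb. With shMBD3.26 and shMBD3.232, 105 and 107 kb were covered in the former and 77.2 and 73 kb in the latter. The cluster on chromosome 12 thus had the lowest coverage with the shRNAs among the 5, at 57.3% and 54.2% of its span.

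**Figure D5:**
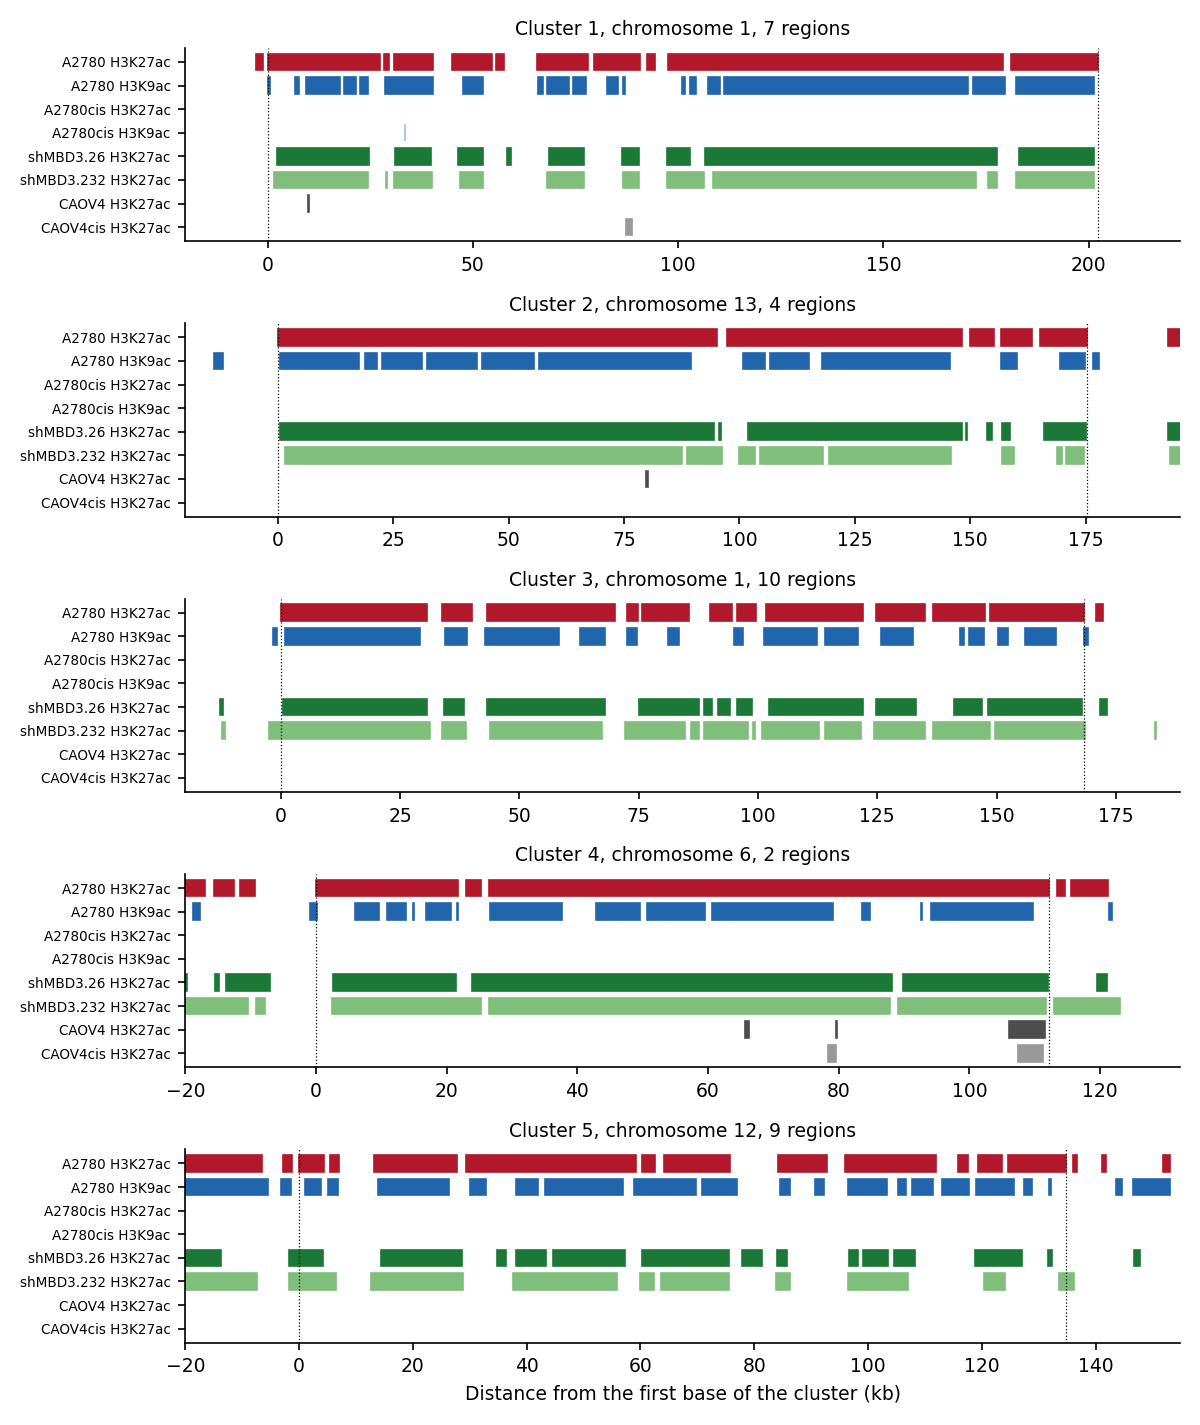
Listed peaks in the 5 clusters of lost regions with H3K9ac that had the most H3K27ac in A2780, with 1 row per list; the x axis is the distance in kb from the first base of the cluster, dotted lines mark its ends, and bars are peaks, with an outline that widens the smallest ones. The rows of A2780cis hold only 0.2 kb of H3K9ac in the first cluster, while both shRNA rows follow A2780.

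The lost regions with H3K9ac were spread unevenly over the chromosomes. They made up 12.8% of the 10308 regions with both marks in A2780, and 12.4% without chromosome 13. On chromosome 13 they made up 63 of 229, or 27.5% (22.1% to 33.6%), followed by chromosomes 18 with 23% (17.8% to 29.3%) and 4 with 21.9% (18.1% to 26.2%). The lowest shares were 6.97% (5.51% to 8.79%) on chromosome 19, 7.04% on chromosome 16 and 8.32% on chromosome 17. None of the 63 regions on chromosome 13 had H3K9ac in A2780cis, while 40 of them, or 63.5%, had H3K27ac with both shRNAs. The lists as a whole also differed on chromosome 13, where A2780 had 523 H3K9ac and 657 H3K27ac peaks and A2780cis had 102 and 306, respectively. The part of this difference in the shares was not tested. On chromosome 18, both shRNAs had H3K27ac at 39 of 47 regions, or 83.0%, and on chromosome 16 at 19 of 42, or 45.2%. The regions were wider on chromosome 18, where they covered 523 kb, against 176 kb on chromosome 16. Wide regions had peaks with both shRNAs more often, and the part of width in this difference was not tested.

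Of the windows that the study displays, SLC66A1L on chromosome 3 and SDC2 on chromosome 8 held such regions. SDC2 encodes syndecan-2, a heparan sulfate proteoglycan of the cell surface. The SLC66A1L window held 3 regions, the widest from 157296001 to 157328000, with H3K9ac over 63.8% of its 32 kb in A2780. H3K27ac covered 98.8% of it with shMBD3.26 and 96.9% with shMBD3.232, and no peak was listed in A2780cis, CAOV4 or CAOV4cis. The region on its left, of 3.80 kb, was covered throughout by both marks in A2780 and by H3K27ac with both shRNAs. The region on its right, from 157329801 to 157338200, was covered less, with 59.5% for shMBD3.26 and 76.2% for shMBD3.232. H3K9ac covered 71.4% of that region in A2780. The SDC2 window held 2 regions that differed in the serous lines. From 97503801 to 97510000, H3K27ac covered 61.3% in CAOV4 and 93.5% in CAOV4cis, and H3K9ac covered 25.8% in A2780. From 97525801 to 97541000, neither serous line had a peak, and H3K9ac covered 71.1% in A2780. With the shRNAs, H3K27ac covered 71.0% and 61.3% of the former and 63.2% and 52.6% of the latter.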

How the data were processed

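Per the labels and the study's methods, cells were washed in buffer with trichostatin A at harvest. Mononucleosomes with a spike-in of 5% *D. melanogaster* chromatin were used for ChIP-seq. The authors aligned reads with Bowtie2, applied a quantile normalization written in R and then ran MACS2 on each sample separately, on Galaxy. Versions are not given in the sources used here. The deposited lists hold peak positions. The deposited score column holds 0 throughout and entered no result. Boundaries lie on a grid of 200 bp in all but 1 row, and the smallest gap within a list is 1000 bp. The sources used here name no step that gives this layout, so widths are those of the lists. The 8 input samples were not used.

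Autosomal peaks were merged and looked up in the 8 lists with Python 3.11.15, numpy 2.4.6, pandas 2.3.3, SciPy 1.17.1, statsmodels 0.14.6 and matplotlib 3.10.9. Shares have 95% Wilson intervals, differences Newcombe intervals and medians binomial order-statistic intervals, all for counting error only. The merge and lookup were tested on simulated data. The regions and comparisons were chosen with earlier results of these data known. Named regions are the 15 widest, the 5 clusters with the most H3K27ac, the 3 widest with H3K9ac in A2780cis, the 3 widest with neither shRNA, the 3 widest with both serous lines, and those in displayed windows, whose positions were read from the figures. The 4 regions with a peak of shMBD3.26 only were chosen after their values were seen. The alternatives were another overlap, distance, width limit, H3K9ac length and peak set, lists of equal length, and chromosome X added. The RefSeq tables at hand are of another build, so genes, base composition, motifs and sequences were not analysed here.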

Additional observations from a re-analysis of the deposited data

How the results depend on the processing

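Each alternative chose the regions anew, so its values belong to another set of regions. Of 81 values recomputed under 9 alternatives, 50 stayed within the interval or limit of the value given in the report and 31 moved. Regions over 5000 bp numbered 575, with a median width of 9800 bp. Their shares were 94.6% with shMBD3.26, 88.5% with shMBD3.232, 3.13% with neither, 16.2% in CAOV4, 17.6% in CAOV4cis and 5.57% with H3K9ac in A2780cis. For regions over 1000 bp, the median width was 3200 bp and H3K9ac coverage 50%, and the shares were 65.9%, 61.0% and 24.3% with shMBD3.26, shMBD3.232 and neither. With peaks within 5 kb counted, the median width was 5200 bp, and these shares were 86.2%, 76.7% and 9.54%. With at least 1000 bp of H3K9ac, the median width was 5000 bp, coverage 57.1% and the shares 80.2%, 74.2% and 12.0%. With peaks over 2000 bp, coverage was 69.4% and the shares 69.2%, 67.3% and 20.8%. With the 15058 widest peaks of each list, coverage was 55.1%, and the shares were 70.8% with shMBD3.26, 18.8% with neither, 19% in CAOV4cis and 11.7% with H3K9ac in A2780cis. The cause of these moves was not tested beyond the construction of each alternative.

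Of 54 recomputed differences from lost regions without H3K9ac, 50 kept their direction and side of 0. Under the alternatives of overlap, H3K9ac length, peak set and equal lists, that group also held lost regions whose H3K9ac fell short of the alternative. With peaks within 5 kb counted, the difference in CAOV4cis reversed to -0.973 points and that in CAOV4 fell to 0.831, with an interval that includes 0. Over 5000 bp, both intervals included 0, with 0.329 points in CAOV4 and 3.48 in CAOV4cis. The alternative without chromosome 13 was chosen after seeing the data. It left 1252 regions, and every share and median stayed within its interval. No paired analysis was possible because each condition and mark had 1 library and the labels give no replicate numbers.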

Other observations

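In the opposite direction, 623 regions over 2000 bp had H3K27ac and H3K9ac in A2780cis and no H3K27ac in A2780. H3K9ac was listed in A2780 at 70 of them, or 11.2% (8.99% to 14.0%). H3K27ac was listed with shMBD3.26 at 19.1% (16.2% to 22.4%) and with shMBD3.232 at 10.1% (7.98% to 12.7%). The knockdown samples are A2780 cells, so these regions were chosen to lack H3K27ac in the line they derive from, as the lost regions were chosen to have it.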
